A study of Homo sapiens with 12 samples.

Results

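The genes described are the mitotic cyclins, the cyclin-dependent kinase CDK1 with its activating phosphatase CDC25C, the cyclosome activator CDC20, and the mitotic kinases PLK1, AURKA, AURKB and NEK2. These 10 genes were chosen by symbol, with earlier results of these data known. Each had 1 row among the 14884 genes that could be named and tested. Expression was measured on 12 Affymetrix arrays of MM.1S cells, a cultured line derived from a patient with multiple myeloma, 24 h after treatment, with 3 arrays in each of 4 groups. FPD cells were given 1 nM filanesib, 500 nM pomalidomide and 10 nM dexamethasone. F cells were given 1 nM filanesib, and their treatment label adds 10 nM dexamethasone, although their name carries the letter F alone. PD cells were given 500 nM pomalidomide with 10 nM dexamethasone, and Control cells were given vehicle. Filanesib blocks the mitotic kinesin encoded by KIF11, pomalidomide makes cereblon target IKZF1 and IKZF3 for degradation, and dexamethasone activates the glucocorticoid receptor. The labels do not state if replicate arrays are independent cultures, so the p-values below describe array-to-array spread that may be purely technical.

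These genes drive entry into and exit from mitosis. Cyclins A and B bind CDK1, and CDC25C removes inhibitory phosphates from the kinase, which then starts mitosis. PLK1 and AURKA act on centrosomes and on CDK1 activation, AURKB corrects faulty attachments of chromosomes to the spindle, and NEK2 separates centrosomes. CDC20 activates the anaphase-promoting complex (APC/C), which marks the mitotic cyclins for destruction. Transcripts of these genes accumulate in G2 and mitosis and are low in G1. In bulk RNA a larger share of cells in G2 or mitosis and more transcript per such cell cannot be told apart.

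Values are log2 expression values normalised by the authors with RMA, so that a difference of 1 is a doubling. Array medians lay between 4.23 and 4.27, and the 10 genes ranged from 7.03 to 11.68. The lowest of these values exceeded the mean level of 84.2% of all rows of the table. Arrays of a group correlated at r = 0.988 to 0.992. Of 7 plasma cell markers 5 were measured: SDC1 (10.14 to 10.25), XBP1 (10.67 to 10.91), MZB1 (11.08 to 11.29), IRF4 (10.06 to 11.50) and CD38 (7.22 to 7.96), all above the array medians. The 5 myeloid markers measured did not exceed 4.72, and the 2 B cell markers PAX5 (4.50 to 4.93) and CD22 (3.92 to 4.36) and the T cell marker CD2 (3.72 to 4.38) were also low. CD5 lay at 5.08 to 5.71. Of the stromal and epithelial list, EPCAM lay at 4.31 to 4.70, PECAM1 at 4.28 to 5.13 and KRT18 at 7.33 to 8.30. DDIT4, which glucocorticoids induce, lay at 10.59 to 10.62 in FPD, 5.89 to 6.09 in F and 10.44 to 10.46 in PD, against 5.90 to 6.06 in Control. FKBP5, another such gene, lay at 7.20 to 7.28 in FPD and 6.95 to 7.18 in PD, against 5.54 to 5.60 in Control. In F it was 6.09 on array 1 and 5.56 and 5.58 on the others, within the Control range. Whether the F cells received dexamethasone was not settled by the labels, and the group is called F throughout. If they did, F against Control holds filanesib with dexamethasone, and FPD against F holds pomalidomide alone. If they did not, these comparisons hold filanesib alone and pomalidomide with dexamethasone. FPD against PD is filanesib alone in either case.

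Promoters of genes expressed in G2 and mitosis often carry a cell cycle gene homology region, bound by the DREAM and MuvB complexes, near CCAAT boxes bound by NF-Y. Windows from 250 bases before to 50 bases after the transcription start, from RefSeq (GRCh38.p14), were found for 9 of the 10 genes, all except AURKA. Where a gene had several windows, the one furthest downstream was used. The motifs, searched on both strands and set in capitals, included the hexamer TTTGAA, which reads TTCAAA on the other strand. The hexamer TTTAAA reads the same on both strands. The CCAAT box reads ATTGG on the other strand, and none of these matches overlapped another in the windows shown. The first 5 sequences belong to genes that rose in FPD, and CDK1 and AURKB, which did not pass that test, are shown for comparison.
CCNB1 (chr5:69166900-69167199, plus strand): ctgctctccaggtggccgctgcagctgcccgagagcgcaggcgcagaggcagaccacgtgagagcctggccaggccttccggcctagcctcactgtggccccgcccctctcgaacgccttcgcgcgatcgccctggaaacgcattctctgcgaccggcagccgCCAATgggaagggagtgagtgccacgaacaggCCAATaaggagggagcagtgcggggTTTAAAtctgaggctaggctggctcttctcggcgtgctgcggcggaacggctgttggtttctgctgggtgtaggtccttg
CCNB2 (chr15:59104896-59105195, plus strand): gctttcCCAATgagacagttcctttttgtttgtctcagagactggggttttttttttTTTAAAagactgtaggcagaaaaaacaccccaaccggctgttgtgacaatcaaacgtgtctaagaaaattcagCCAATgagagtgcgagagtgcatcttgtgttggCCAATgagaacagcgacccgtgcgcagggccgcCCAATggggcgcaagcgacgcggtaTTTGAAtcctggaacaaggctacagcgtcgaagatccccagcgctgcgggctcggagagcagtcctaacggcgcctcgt
CDC20 (chr1:43358731-43359030, plus strand): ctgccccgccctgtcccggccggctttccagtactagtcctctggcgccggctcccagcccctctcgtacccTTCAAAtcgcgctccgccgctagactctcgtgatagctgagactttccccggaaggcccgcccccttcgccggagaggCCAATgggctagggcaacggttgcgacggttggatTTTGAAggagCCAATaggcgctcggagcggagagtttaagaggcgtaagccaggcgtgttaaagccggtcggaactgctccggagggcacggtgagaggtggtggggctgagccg
NEK2 (chr1:211675572-211675871, minus strand): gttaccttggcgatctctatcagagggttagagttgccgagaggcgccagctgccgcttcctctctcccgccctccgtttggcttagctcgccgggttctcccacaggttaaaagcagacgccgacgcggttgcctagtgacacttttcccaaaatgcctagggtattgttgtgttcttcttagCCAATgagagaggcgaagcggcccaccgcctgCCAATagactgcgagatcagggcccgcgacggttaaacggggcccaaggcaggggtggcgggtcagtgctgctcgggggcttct
CDC25C (chr5:138331755-138332054, minus strand): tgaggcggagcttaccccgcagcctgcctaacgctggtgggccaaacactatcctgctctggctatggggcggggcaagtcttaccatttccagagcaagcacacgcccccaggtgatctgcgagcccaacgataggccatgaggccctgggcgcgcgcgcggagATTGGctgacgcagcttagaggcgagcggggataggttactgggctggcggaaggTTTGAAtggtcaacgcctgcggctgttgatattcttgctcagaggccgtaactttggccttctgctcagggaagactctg
CDK1 (chr10:60778228-60778527, plus strand): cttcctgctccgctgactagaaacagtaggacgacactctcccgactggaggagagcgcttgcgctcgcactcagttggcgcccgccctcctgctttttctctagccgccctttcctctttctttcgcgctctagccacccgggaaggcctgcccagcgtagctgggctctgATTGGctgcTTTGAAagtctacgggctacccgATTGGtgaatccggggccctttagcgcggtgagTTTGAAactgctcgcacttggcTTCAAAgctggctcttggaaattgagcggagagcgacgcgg
AURKB (chr17:8210176-8210475, minus strand): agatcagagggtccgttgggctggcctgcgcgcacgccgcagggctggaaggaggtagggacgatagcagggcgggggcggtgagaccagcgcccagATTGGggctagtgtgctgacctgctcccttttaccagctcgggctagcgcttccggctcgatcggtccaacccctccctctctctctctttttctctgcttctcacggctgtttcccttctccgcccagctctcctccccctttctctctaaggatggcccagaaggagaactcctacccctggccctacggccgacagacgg

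A CCAAT box was present in 9 of the 9 windows, against 34.6% of all 35116 windows. TTTGAA was present in 5, against 15.2% of all windows, and TTTAAA in 3, against 12.2%. With positions counted from the start site and negative ones upstream, a hexamer began at -30 in CCNB1 (TTTAAA) and CDC25C (TTTGAA) and at -29 in CCNB2 and PLK1 (TTTGAA). Either hexamer began at -30 or -29 in 0.664% of all windows, a position picked after the sequences had been seen. CCAAT boxes began at -87 and -55 in CCNB1, at -244, -120, -87 and -54 in CCNB2, and at -66 and -34 in NEK2. NEK2, which rose in FPD, held neither hexamer, and CDK1, which did not pass, held TTTGAA at 3 positions. CCNA2 also held neither hexamer, nor did the AURKB window shown. AURKB and CDK1 had 2 windows each and CDC25C had 4, of which only the furthest downstream is described. These matches describe the letters only, since binding was not measured.

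CCNB1 (transcript cluster 16985599, chromosome 5) and CCNB2 (transcript cluster 16801557, chromosome 15) encode B cyclins, the partners of CDK1 at mitotic entry. CCNB1 lay at 8.97, 9.07 and 9.07 on the FPD arrays and at 8.80, 9.15 and 9.22 on the F arrays. It lay at 8.57, 8.71 and 8.51 on the PD arrays, against 8.55, 8.57 and 8.35 on the Control arrays. All FPD and F arrays lay above all PD and Control arrays for this cyclin. CCNB1 averaged 9.04 ± 0.056 in FPD and 8.49 ± 0.12 in Control (SD, n = 3 each), and rose by 0.55 ± 0.11 (log2 change ± SE; 1.46-fold, limma adjusted p = 0.00350).

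In FPD the CCNB2 values were 8.85, 8.88 and 8.99, and in F they were 8.36, 8.47 and 8.48. Those in PD were 8.40, 8.50 and 8.53, against 7.96, 7.99 and 7.94 in Control. CCNB2 was thus lowest in Control and highest in FPD, with F and PD between them and overlapping. It averaged 8.91 ± 0.071 in FPD and 7.96 ± 0.024 in Control (SD, n = 3 each). The rise of 0.95 ± 0.08 (SE; 1.93-fold, limma adjusted p = 1.95e-06) was the highest among the 10 genes.

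The B cyclins had different values in the comparisons that add pomalidomide. CCNB2 rose in PD against Control by 0.52 ± 0.08 (SE; 1.43-fold, limma adjusted p = 0.000495), and CCNB1 had a log2 change of 0.10 (95% interval -0.14 to 0.34, limma adjusted p = 0.643). CCNB2 also rose in FPD against F, by 0.47 ± 0.08 (SE; 1.39-fold, limma adjusted p = 0.00112), where CCNB1 had -0.02 (95% interval -0.26 to 0.22). To compare the pair within arrays, the CCNB1 value was subtracted from the CCNB2 value of the same array. The result was -0.12, -0.19 and -0.08 in FPD, against -0.44, -0.69 and -0.74 in F. It was -0.16, -0.21 and 0.02 in PD, against -0.60, -0.58 and -0.41 in Control. The 6 arrays with pomalidomide all lay above the 6 without it. The pair was picked after its values had been seen, and no test is given.

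CCNA2 (transcript cluster 16979515, chromosome 4), cyclin A2, acts with CDK2 in S phase and with CDK1 towards mitosis. For CCNA2 the FPD arrays gave 10.48, 10.64 and 10.41 and the F arrays 10.41, 10.66 and 10.48. The PD arrays gave 10.23, 10.15 and 10.17, against 10.24, 10.43 and 10.15 for Control. FPD lay above every PD array for CCNA2 but overlapped with Control, where array 2 was high. Its log2 change in FPD was 0.24 ± 0.10 (SE; 1.18-fold, limma adjusted p = 0.156).

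CDK1 (transcript cluster 16705159, chromosome 10) is the kinase that the mitotic cyclins activate. CDK1 lay at 8.95, 8.85 and 8.81 on the FPD arrays and at 8.86, 9.32 and 9.33 on the F arrays. It lay at 8.54, 8.57 and 8.79 on the PD arrays, against 8.78, 8.83 and 8.59 on the Control arrays. F array 1 was well below F arrays 2 and 3, and FPD overlapped with Control. CDK1 averaged 8.87 ± 0.070 in FPD and 9.17 ± 0.27 in F, against 8.73 ± 0.13 in Control (SD, n = 3 each). Its log2 change in FPD was 0.14 ± 0.12 (SE, limma adjusted p = 0.571). In FPD against F it was -0.30 (limma adjusted p = 0.134), and without F replicate 1 it was -0.45 (limma adjusted p = 0.0126), so that 1 array decided this call.

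CDC25C (transcript cluster 17000439, chromosome 5) removes inhibitory phosphates from CDK1. In FPD the CDC25C values were 7.65, 7.95 and 7.82, and in F they were 7.33, 7.46 and 7.43. Those in PD were 7.57, 7.32 and 7.55, against 7.33, 7.39 and 7.03 in Control. All FPD arrays of CDC25C lay above all arrays of the other groups, which overlapped with each other. It averaged 7.80 ± 0.15 in FPD and 7.25 ± 0.19 in Control (SD, n = 3 each) and rose by 0.55 ± 0.11 (SE; 1.47-fold, limma adjusted p = 0.00351). CDC25C was also higher in FPD than in F, by 0.40 ± 0.11 (SE; 1.32-fold, limma adjusted p = 0.0262). That call was lost without F replicate 1 (limma adjusted p = 0.0821), F replicate 2 (0.0548), F replicate 3 (0.0604), FPD replicate 2 (0.120) or FPD replicate 3 (0.0768).

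CDC20 (transcript cluster 16663514, chromosome 1) brings substrates to the APC/C. For CDC20 the FPD arrays gave 10.09, 10.23 and 10.07 and the F arrays 9.89, 9.92 and 9.80. The PD arrays gave 9.73, 9.70 and 9.85, against 9.51, 9.55 and 9.36 for Control. The FPD arrays of CDC20 were the highest and the Control arrays the lowest, with F and PD between them and overlapping. It averaged 10.13 ± 0.089 in FPD and 9.47 ± 0.099 in Control (SD, n = 3 each), a rise of 0.66 ± 0.09 (SE; 1.58-fold, limma adjusted p = 0.000124). CDC20 also passed in PD against Control, with 0.29 ± 0.09 (SE; 1.22-fold, limma adjusted p = 0.0398). That call was lost when any 1 of the 6 arrays was left out. The limma adjusted p was 0.0717 without PD replicate 1, 0.0534 without PD replicate 2 and 0.138 without PD replicate 3. It was 0.0664 without Control replicate 1, 0.0506 without Control replicate 2 and 0.155 without Control replicate 3.

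PLK1 (transcript cluster 16817017, chromosome 16) is the polo-like kinase that promotes mitotic entry and spindle assembly. PLK1 lay at 11.58, 11.57 and 11.27 on the FPD arrays and at 11.68, 11.65 and 11.57 on the F arrays. It lay at 11.22, 11.10 and 11.16 on the PD arrays, against 11.07, 11.35 and 10.96 on the Control arrays. All F arrays lay above Control for PLK1, while FPD replicate 3 lay below Control replicate 2. FPD averaged 11.47 ± 0.18 and Control 11.13 ± 0.20 (SD, n = 3 each), a log2 change of 0.35 ± 0.11 (SE; 1.27-fold, limma adjusted p = 0.0538) that did not pass. It passed in 6 of 14 other settings and not in 8. Among the 6 were leaving out FPD replicate 3 (0.45, limma adjusted p = 0.0217) or Control replicate 2 (0.46, limma adjusted p = 0.0163). Leaving out genes under the median mean level (limma adjusted p = 0.0261) and a trended and robust variance model (0.0185) were others. Without Control replicate 3 it did not pass (0.26, limma adjusted p = 0.195).

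NEK2 (transcript cluster 16698984, chromosome 1) phosphorylates linker proteins that hold centrosomes together. In FPD the NEK2 values were 8.47, 8.58 and 8.48, and in F they were 8.22, 8.50 and 8.38. Those in PD were 8.05, 7.94 and 8.08, against 7.86, 7.88 and 7.70 in Control. The FPD and F arrays of NEK2 lay above all PD arrays, and the PD arrays above all Control arrays. It averaged 8.51 ± 0.059 in FPD and 7.81 ± 0.098 in Control (SD, n = 3 each) and rose by 0.69 ± 0.10 (SE; 1.62-fold, limma adjusted p = 0.000123).

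AURKA (transcript cluster 16920548, chromosome 20) acts at centrosomes and spindle poles. For AURKA the FPD arrays gave 7.87, 7.87 and 8.01 and the F arrays 7.96, 8.10 and 8.06. The PD arrays gave 7.75, 7.65 and 7.34, against 7.91, 7.85 and 7.69 for Control. FPD overlapped with Control for AURKA, and the log2 change was 0.10 (95% interval -0.13 to 0.33, limma adjusted p = 0.653). AURKB (transcript cluster 16840902, chromosome 17) is the catalytic subunit of the chromosomal passenger complex. AURKB lay at 9.96, 10.04 and 10.03 on the FPD arrays and at 9.91, 9.99 and 9.83 on the F arrays. It lay at 9.75, 9.66 and 9.75 on the PD arrays, against 9.82, 9.84 and 9.79 on the Control arrays. The Control arrays of AURKB lay close together, with the FPD arrays above them and the PD arrays below. Its log2 change in FPD was 0.20 (95% interval 0.02 to 0.37, limma adjusted p = 0.150).

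**Figure D1:**
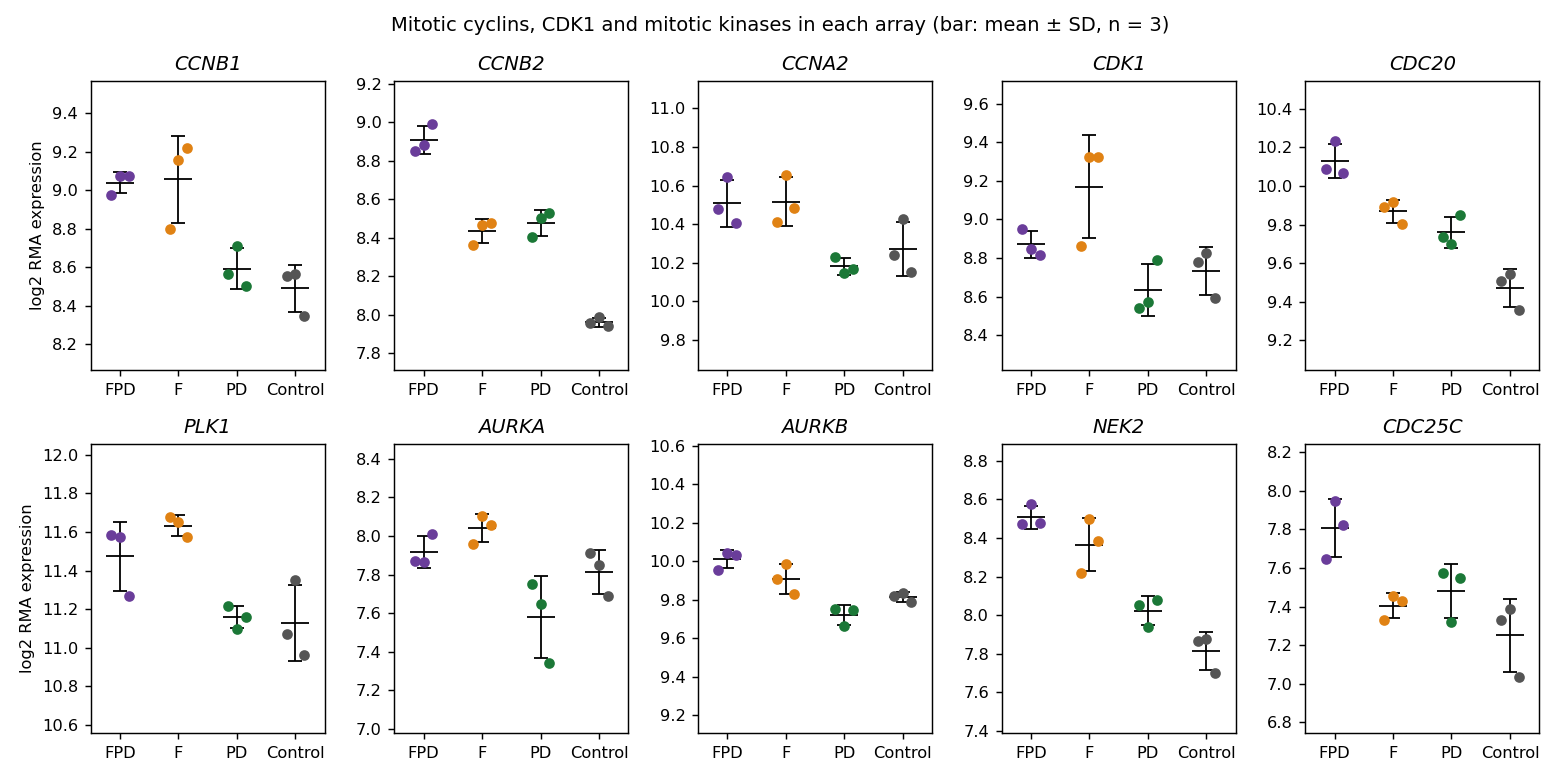
Log2 RMA expression of each of the 10 genes (vertical axes) in the FPD, F, PD and Control groups (horizontal axis). Points are arrays and bars are the mean ± SD of 3 arrays. FPD stands clear of Control for CCNB1, CCNB2, CDC20, AURKB, NEK2 and CDC25C, and overlaps with it for the other genes.

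Over the set, 5 of the 10 genes rose in FPD against Control (CCNB1, CCNB2, CDC20, NEK2 and CDC25C) and 0 fell, where 7.26% of all genes rose and 5.89% fell (adjusted p under 0.05). All 10 log2 changes were positive, from 0.10 for AURKA to 0.95 for CCNB2, with a median of 0.45, against -0.02 over all genes. In 6 of the 10 the FPD arrays lay wholly above the Control arrays, as they did in 14.4% of all genes. When the arrays were quantile normalised again, CCNA2 (limma adjusted p = 0.0452), PLK1 (0.0227) and AURKB (0.0376) passed as well.

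F against Control concerned filanesib without pomalidomide, with dexamethasone as well if the treatment label holds. By the adjusted test 0 of the 10 genes rose and 0 fell, where 0.00672% of all genes rose and 0% fell. All 10 changes were positive, with a median of 0.42 against -0.0051 over all genes. CCNB1 had 0.57 (1.48-fold), NEK2 0.55 (1.47-fold), PLK1 0.51 (1.42-fold) and CCNB2 0.47 (1.39-fold). CDK1 had 0.44, CDC20 0.40 and AURKB, the lowest, 0.09 (95% interval -0.08 to 0.27). The lowest limma adjusted p was 0.155, for CCNB2 and NEK2, and with a trended and robust variance model both passed (limma adjusted p = 0.0467). An unadjusted limma p under 0.05 was reached by 7 of the 10, against 3.12% of all genes in that direction. In 7 of the 10, all but CCNA2, AURKB and CDC25C, the F arrays lay wholly above Control, as they did in 4.84% of all genes. The 1 gene called among the 14884 named genes was MIR4771-1, named because the count was that small. With every row tested, most of them without a gene symbol, 31 of 53617 rows were called higher and 1 lower.

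FPD against PD concerned filanesib added to pomalidomide and dexamethasone. It shares no array with the comparison of F and Control, but both tests use the same estimate of spread for each gene. The 3 FPD arrays lay above the 3 PD arrays in 10 of the 10 genes, as they did in 8.1% of all genes. The log2 changes ran from 0.24 for CDK1 (1.18-fold) to 0.49 for NEK2 (1.40-fold), with a median of 0.33 against 0.0057 over all genes. By the adjusted test 0 of the 10 rose and 0 fell, where 0.0336% of all genes rose and 0% fell. CCNB2 (0.43) and NEK2 (0.49) had the lowest limma adjusted p (0.0766 for both). Both passed when genes under the median mean level were left out (limma adjusted p = 0.0377) and with the trended and robust variance model (0.0304 for CCNB2 and 0.0317 for NEK2). An unadjusted limma p under 0.05 was reached by 9 of the 10, against 5.01% of all genes in that direction, and CDK1 was the exception. The 5 genes called among the 14884 named genes were EBLN2, LOC100288637, MIR4521, MIR4771-1 and PARPBP, again named for their small number. With every row tested, 93 of 53617 rows were called higher and 1 lower.

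The 2 filanesib comparisons were set side by side, FPD against PD first and F against Control after it. CCNB1 had 0.45 and 0.57, CCNB2 0.43 and 0.47, CDC20 0.37 and 0.40, and NEK2 0.49 and 0.55. CDK1 had 0.24 and 0.44, and PLK1 0.32 and 0.51. CCNA2 had 0.33 and 0.25, AURKA 0.34 and 0.23, AURKB 0.29 and 0.09, and CDC25C 0.33 and 0.15. The 6 genes named first had the lower change with pomalidomide and dexamethasone present, and the other 4 the higher one. The difference of the 2 changes, called the departure from additivity, was tested in the same model. It is a departure for the agents only if F lacked dexamethasone, since otherwise F against Control holds that agent and FPD against PD does not. In this test 0 of the 10 genes passed, where 0% of all genes passed. Without adjustment 0 of the 10 reached a limma p under 0.05, against 5.6% of all genes. The differences ran from -0.20 for CDK1 (95% interval -0.57 to 0.17) to 0.20 for AURKB (-0.05 to 0.45), and the intervals of both include 0.

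**Figure D2:**
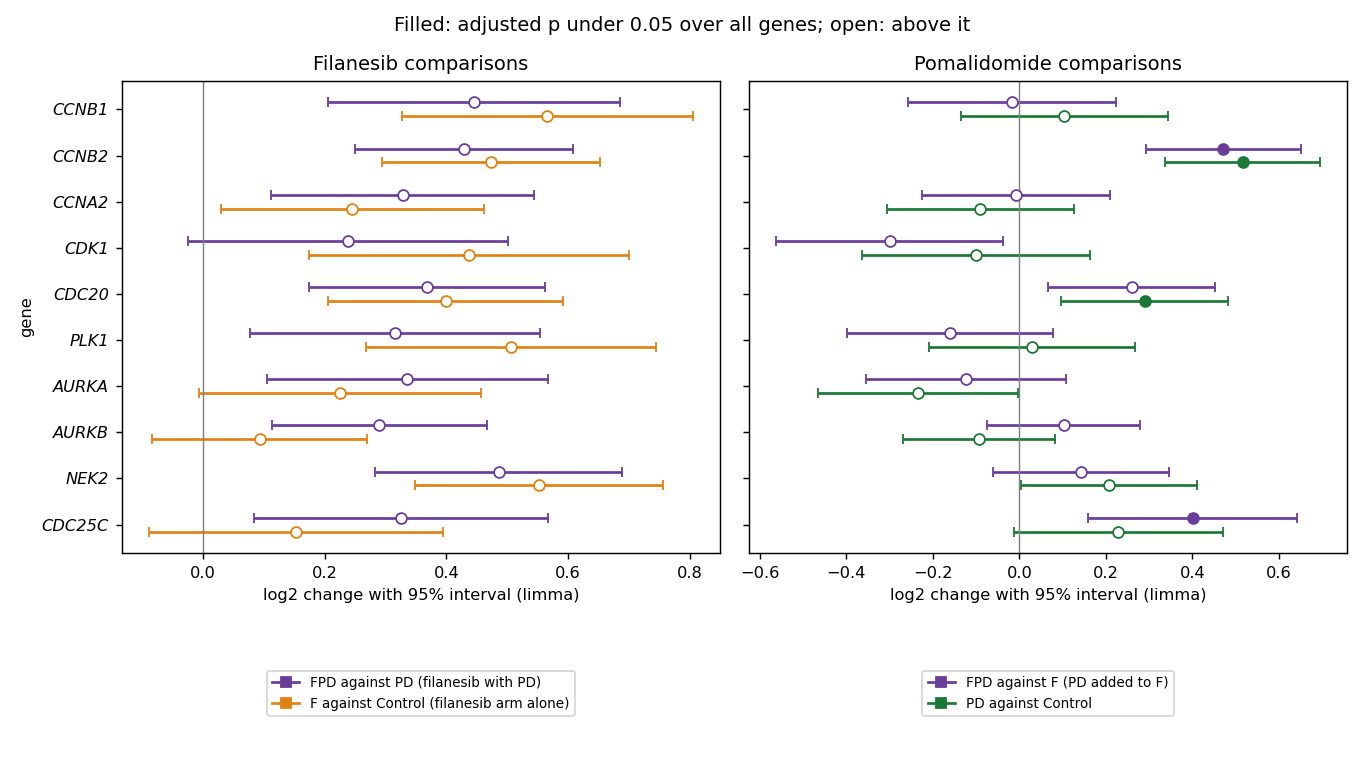
Log2 changes (horizontal axis) of the 10 genes (vertical axis) with 95% intervals from the limma model. The left panel sets FPD against PD beside F against Control, and every change there is positive. The right panel sets FPD against F beside PD against Control. There CCNB2, CDC20, NEK2 and CDC25C are positive in both, and CCNA2, CDK1 and AURKA are negative in both.

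An average of both filanesib comparisons, over 6 arrays with and 6 without filanesib, was added after the data had been seen. By it 5 of the 10 genes rose and 0 fell, where 0.383% of all genes rose and 0.047% fell. These were CCNB1 (0.51, limma adjusted p = 0.0104), CCNB2 (0.45, 0.00265), CDC20 (0.38, 0.0138), PLK1 (0.41, 0.0307) and NEK2 (0.52, 0.00265). CCNA2 (0.29), CDK1 (0.34), AURKA (0.28), AURKB (0.19) and CDC25C (0.24) did not pass, with limma adjusted p between 0.132 and 0.344. An unadjusted limma p under 0.05 was reached by all 10, against 4.85% of all genes in that direction. The call of PLK1 was lost on leaving out FPD replicate 1 (limma adjusted p = 0.100) or 2 (0.0880), or F replicate 1 (0.0636), 2 (0.0967) or 3 (0.0649). It was also lost without PD replicate 2 (limma adjusted p = 0.0864) or 3 (0.0779) and without Control replicate 1 (0.0993) or 3 (0.0659). CDC20 was lost without F replicate 2 (limma adjusted p = 0.0521), where 3 of the 10 passed. Of all 14884 genes 24 rose and 2 fell without that array. CDK1 passed without F replicate 1 (limma adjusted p = 0.0271). If F cells received dexamethasone, as their label says, that agent is part of this average too.

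Pomalidomide was added without filanesib in PD against Control, together with dexamethasone, and with filanesib in FPD against F. By the treatment label of F, FPD against F differs in pomalidomide alone, and by its name in dexamethasone too. In PD against Control 2 of the 10 genes rose, CCNB2 and CDC20, and 0 fell, where 6.84% of all genes rose and 8.63% fell. The median change was 0.07 against -0.0027 over all genes, with 6 positive and 4 negative. AURKA had the lowest value, -0.23 (limma adjusted p = 0.181), which was -0.12 without PD replicate 3, CDK1 had -0.10 and NEK2 0.21 (limma adjusted p = 0.177). In FPD against F, 2 of the 10 rose, CCNB2 and CDC25C, and 0 fell, where 7.5% of all genes rose and 6.64% fell. CDC20 had 0.26 there (limma adjusted p = 0.0714). It passed with quantile normalisation (0.34, limma adjusted p = 0.0171), above the median mean level (0.0369) and with the trended and robust variance model (0.0322).

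Averaged over both of these comparisons, again added after the data were seen, CCNB2 (0.49, limma adjusted p = 1.22e-05), CDC20 (0.27, 0.00443) and CDC25C (0.31, 0.00813) rose. That is 3 of the 10, where 11.3% of all genes rose and 12.2% fell. By the treatment labels this average joins pomalidomide with dexamethasone (PD against Control) and pomalidomide alone (FPD against F). CDK1 (-0.20, limma adjusted p = 0.122), AURKA (-0.18, 0.114) and NEK2 (0.17, 0.0767) did not pass. Without F replicate 1 CDK1 passed (-0.28, limma adjusted p = 0.0123), and without F replicate 2 NEK2 did (0.21, limma adjusted p = 0.0478). NEK2 also passed with quantile normalisation (limma adjusted p = 0.0368) and above the median mean level (0.0411).

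The change in FPD against Control was set beside the sum of the changes in F and in PD, all of which share the Control arrays. If F cells received dexamethasone, the sum counts that agent in both terms and FPD holds it once, so that the sum is not an additive expectation. CCNB2 had 0.95 in FPD and a sum of 0.99, CDC20 had 0.66 and 0.69, and NEK2 had 0.69 and 0.76. CDC25C had 0.55 in FPD and a sum of 0.38, and PLK1 had 0.35 and 0.54. CDK1 had 0.14 and a sum of 0.34, with a positive value in F and a negative one in PD.

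**Figure D3:**
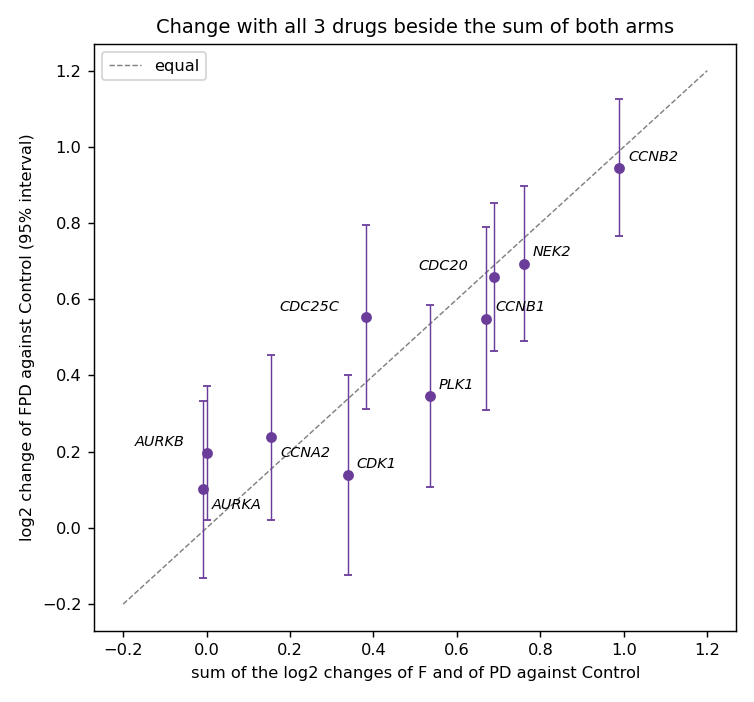
Log2 change of FPD against Control with its 95% interval (vertical axis) plotted against the sum of the log2 changes of F and of PD against Control (horizontal axis), 1 point per gene, with a line of equal values, which is the additive expectation only if F lacked dexamethasone. CCNB2 lies furthest out, at 0.99 on the horizontal and 0.95 on the vertical axis.

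By group means, FPD was highest in 5 of the 10 genes (CCNB2, CDC20, AURKB, NEK2 and CDC25C) and F in the other 5, where FPD came next. Control was lowest in 6 and PD in 4 (CCNA2, CDK1, AURKA and AURKB). The mean of the 10 genes on each array, with every gene centred on its own mean, was 0.19, 0.27 and 0.20 in FPD and 0.04, 0.22 and 0.16 in F. It was -0.12, -0.17 and -0.13 in PD, against -0.19, -0.13 and -0.34 in Control. Control replicate 3 had the lowest value of its group in 10 of the 10 genes, and F replicate 1 in 7. The share of all genes that did so was not counted. Among genes outside the set, E2F1, MCM6 and PCNA were also lowest in Control on replicate 3, and CCND2 and CDK6 were highest there. Whether this is particular to the members was not tested, nor was its source. Without Control replicate 3 the changes in FPD were 0.48 for CCNB1, 0.93 for CCNB2, 0.60 for CDC20, 0.64 for NEK2 and 0.45 for CDC25C. These 5 still passed, where 925 of all 14884 genes were called higher and 773 lower.

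The members varied together to different degrees. Over the 12 arrays, NEK2 correlated with the mean of the other members at r = 0.98, CCNB1 at 0.92 and CDC20 at 0.87, while CDK1 reached 0.61 and AURKA 0.55. These points share the group differences. With each array set relative to its group mean, r was 0.92 for NEK2, 0.84 for CCNA2 and 0.75 for CDC25C, and 0.26 for CCNB2 and 0.21 for AURKA.

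The other genes whose levels over the 12 arrays were most like the mean of the members were DEPDC1B (Pearson r = 0.96), HMMR (0.96), KIF18A (0.96), TTK (0.95), CEP55 (0.93), CMTM1 (0.91), TROAP (0.91), PRR11 (0.91), SCLT1 (0.90) and CENPA (0.90). TTK is the spindle checkpoint kinase MPS1, KIF18A a mitotic kinesin, HMMR a spindle protein, CEP55 an abscission factor and CENPA the centromeric histone. They were chosen for this likeness, so their changes are a description. In FPD against Control these ran from 0.28 for CMTM1 to 0.81 for TROAP, and in PD against Control from 0.03 for KIF18A to 0.27 for PRR11.

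**Figure D4:**
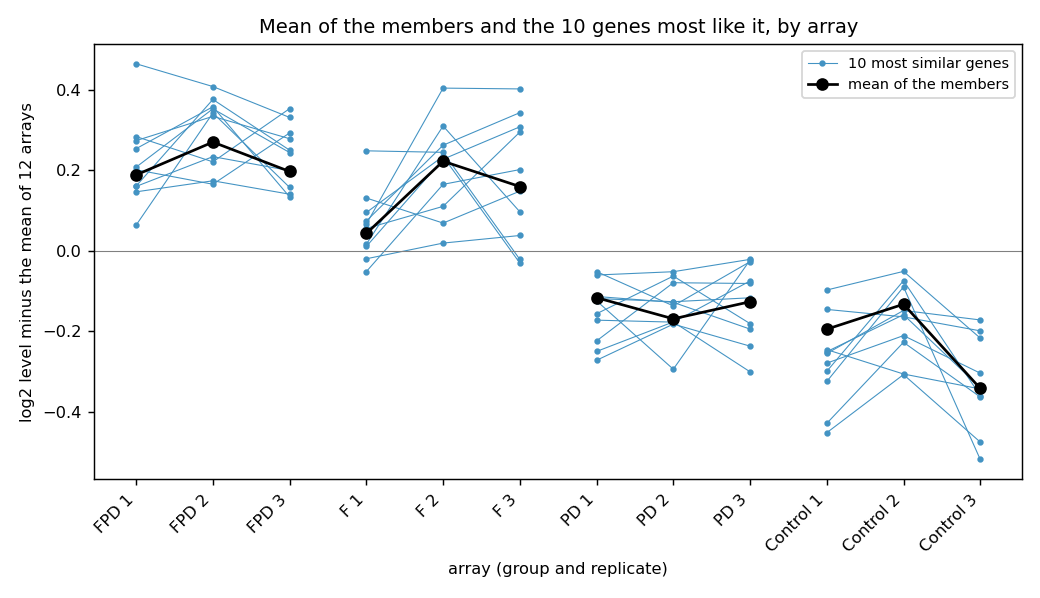
Mean of the 10 mitotic genes and each of the 10 genes most like it on every array (horizontal axis), as log2 level minus the mean of the 12 arrays (vertical axis). The mean of the mitotic genes is positive on all FPD and F arrays and negative on all PD and Control arrays.

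Companion genes were taken from lists of partners and regulators of the members, of their paralogs, and of 19 G1 and S phase genes for comparison. Of these companions 78 of 98 had a named row. In FPD against Control 8 of them rose and 19 fell, where 7.26% of all genes rose and 5.89% fell, so that the count that rose is near the share of all genes. In PD against Control 3 rose and 28 fell, where 6.84% and 8.63% of all genes did. Of those that fell, 13 in FPD and 16 in PD were G1 and S phase genes. In F against Control 0 passed, where 0.00672% of all genes rose and 0% fell. In FPD against PD 0 passed, where 0.0336% rose and 0% fell. With a trended and robust variance model 4 passed there, beside 28 of all 14884 genes higher and 3 lower.

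Among 9 measured regulators of CDK1 the median change in FPD was -0.04. In this list 1 rose and 1 fell, where 7.26% of all genes rose and 5.89% fell. The phosphatase CDC25B rose (0.53, limma adjusted p = 0.00217) and CDC25A, best known for its role at the start of S phase, fell (-0.76, 0.000231). CDC25A lay at 8.03, 7.75 and 7.85 in FPD, 8.61, 8.59 and 8.49 in F and 7.68, 7.31 and 7.56 in PD, against 8.69, 8.74 and 8.48 in Control. Among the CDC25 phosphatases CDC25B and CDC25C were thus higher in FPD and CDC25A lower. CKS2, a small CDK-binding protein, had 0.32 (limma adjusted p = 0.124). MASTL, the Greatwall kinase that restrains a phosphatase opposing CDK1, had -0.08 in FPD and fell in PD (-0.35, limma adjusted p = 0.00944).

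Among 6 measured cofactors of the Aurora and Polo kinases, 6 had positive changes in FPD (median 0.26), as did 46.4% of all genes (median -0.02). Of the cofactors 2 rose, CDCA8 (0.46, limma adjusted p = 0.00378) and BUB1 (0.27, 0.0490), where 7.26% of all genes rose. CDCA8 (borealin), BIRC5 (survivin) and INCENP form the chromosomal passenger complex with AURKB. BIRC5 had 0.32 (limma adjusted p = 0.0995) and INCENP 0.10 (0.594). AJUBA, an activator of AURKA, had 0.09 (limma adjusted p = 0.677).

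Of 21 measured genes of the APC/C and its regulators (median -0.06), FZR1, the activator that takes over from CDC20 at mitotic exit, rose in FPD (0.40, limma adjusted p = 0.0218). The subunit gene ANAPC13 fell (-0.37, limma adjusted p = 0.0280). Thus 1 gene rose and 1 fell, where 7.26% of all genes rose and 5.89% fell, so that neither count exceeds the share of all genes. The subunit genes ANAPC11 (0.33, limma adjusted p = 0.0819) and ANAPC7 (-0.23, 0.0876) did not pass. FZR1 had -0.06 in F against Control, where CDC20 had 0.40.

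Of 10 measured factors that control transcription in G2 and mitosis, LIN37 (0.71, limma adjusted p = 0.00249) and RBL2 (0.31, 0.0199) rose in FPD. RBBP4 (-0.51, limma adjusted p = 0.000828), TFDP1 (-0.35, 0.0387) and MYBL2 (-0.34, 0.0360) fell. Over all genes 7.26% rose and 5.89% fell in FPD. LIN37 and RBBP4 belong to the MuvB core, which the repressive DREAM complex shares with complexes of the activator B-MYB. RBL2 and TFDP1 belong to DREAM, and MYBL2 encodes B-MYB. FOXM1, an activator of mitotic genes, had 0.22 (limma adjusted p = 0.115). In PD against Control 2 rose and 5 fell, where 6.84% of all genes rose and 8.63% fell. LIN37 had 0.83 there (limma adjusted p = 0.000561) and MYBL2 -0.48 (0.00353).

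Of 13 measured paralogs of the members (median -0.02), NEK11 (0.64, limma adjusted p = 0.00155) and NEK3 (0.34, 0.0469) rose in FPD. The stress-responsive kinase PLK3 fell (-0.54, limma adjusted p = 0.00211), and PLK2 had -0.32 (0.0542). Over all genes 7.26% rose and 5.89% fell.

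Of 19 G1 and S phase genes, listed for comparison, 13 fell in FPD and 0 rose, where 5.89% of all genes fell and 7.26% rose (median -0.62, against 0.45 for the mitotic genes). E2F1, a transcription factor of S phase entry, fell (-1.05, limma adjusted p = 1.96e-05), as did the helicase subunit MCM6 (-1.04, 2.27e-06). CCND3, a D-type cyclin, had 0.31 (limma adjusted p = 0.0722) and RRM2, a subunit of ribonucleotide reductase, -0.17 (0.212). In PD 16 fell and 0 rose, where 8.63% of all genes fell and 6.84% rose (median -0.68). In F 0 passed (median -0.16), where 0.00672% of all genes rose and 0% fell. Of the 19 changes in F 4 were positive, against 48.3% of all genes.

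**Figure D5:**
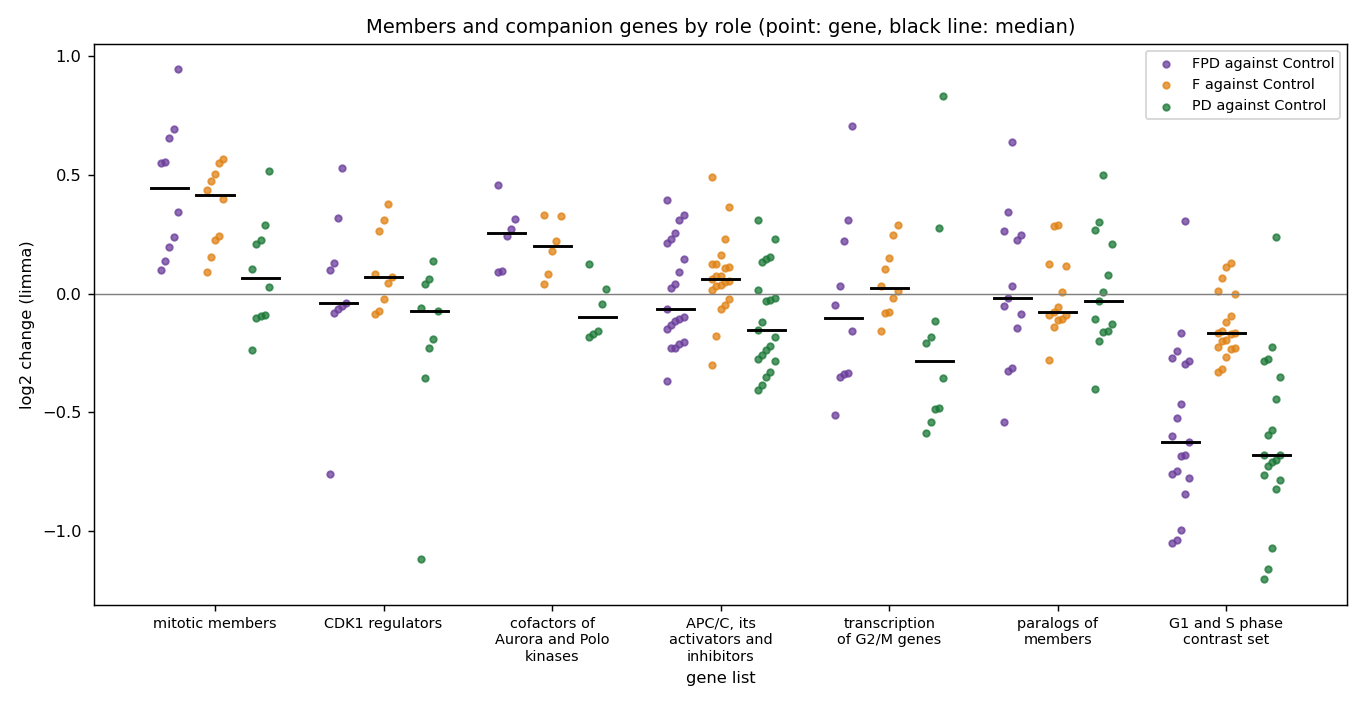
Log2 changes of the 10 mitotic genes and of the companion genes by list in FPD, F and PD against Control, 1 point per gene, with the median of each list as a line. In FPD the mitotic genes have a median of 0.45 and the G1 and S phase genes -0.62.

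The RefSeq gene table lists pseudogenes named after CCNB2 (1), CDC20 (1), AURKA (2), AURKB (1) and NEK2 (4), and signal from such copies was not separated from that of these genes.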

How the data were processed

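The deposited values of 12 arrays, 3 per group, are log2 RMA summaries, and the submitters' processing notes name Affymetrix Expression Console as the software. RMA removes background, equalises array distributions and summarises probes, which compresses low signals and hides any shift in total RNA per cell. Of 53617 rows, 16098 had 1 gene symbol in the platform annotation and 37519 had none. Of 779 genes with several rows, the row with the highest mean was kept. All 14884 genes were fitted with limma 3.58.1 in R 4.3.3 (lmFit, eBayes, 4 group means, 8 residual degrees of freedom), with two-sided tests and Benjamini-Hochberg adjustment over all genes. An adjusted p under 0.05 is a call, to which "rose" and "fell" refer. The 10 genes and the lists were chosen with earlier results of these data known. Named companions are the 2 highest and 2 lowest log2 changes of each list in FPD, while BUB1, MYBL2 and FOXM1 were picked after their values were seen. Averaged comparisons were also added after seeing the data. The 10 most alike genes follow a rule on Pearson's r. The number of arrays limits the precision. The fit was run on simulated data with independent noise for each gene. Genes on real arrays can vary together, so that run does not bear on the calls. Alternatives were other scalings, a level filter, other row rules, other variance models, a replicate block and leaving out each array.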

Additional observations from a re-analysis of the deposited data

Results flagged for a closer look

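AURKB had opposite signs in FPD against F and in PD against Control, with neither change called. By the treatment label of F these are pomalidomide alone and pomalidomide with dexamethasone, so that the treatments compared may differ by more than filanesib. All 3 FPD arrays lay above the F mean, and all 3 PD arrays lay below the Control mean. The difference of the 2 changes was 0.196 on the log2 scale (95% interval -0.05 to 0.45, limma adjusted p = 0.896, unadjusted p = 0.116). With the arrays quantile normalised again, AURKB in PD against Control was 0.018, so that the opposite directions depended on the scaling.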

How the results depend on the processing

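Of the 10 mitotic genes, 8 were called in FPD against Control with quantile normalisation, where 1061 of all 14884 genes were called higher and 916 lower. In F against Control 2 were called with the trended and robust variance model, where 4 of all genes were called higher and 0 lower. In FPD against PD 2 were called above the median mean and 2 with that model, and of the companion genes 1 with quantile normalisation, 1 above the median mean and 4 with that model. Over all genes quantile normalisation called 10 higher and 1 lower there. The level filter called 19 and 1 of 7442 genes, and that model 28 and 3 of 14884. In PD against Control 1 was called with median centring, 1 over all rows, 1 with the compared groups alone and 1 with the replicate block. Of all 14884 genes, centring called 865 higher and 1458 lower, the groups alone 818 and 1020, and the block 1007 and 1270. Of all 53617 rows, 1385 were called higher and 1800 lower. In FPD against F 1 was called over all rows, where 1352 rows were called higher and 1296 lower. There 3 were called with quantile normalisation, the level filter or the trended and robust model, CDC20 being added. These settings called 1088 higher and 1055 lower of 14884 genes, 1120 and 1129 of 7442, and 1174 and 1079 of 14884. Leaving out any 1 array gave 1 call in PD against Control, 1 to 2 in FPD against F, 3 to 5 in the filanesib average and 0 to 1 companion genes in FPD against PD. Over all genes these fits called 825 to 882 higher and 918 to 1165 lower in PD against Control. In FPD against F they called 771 to 993 higher and 657 to 985 lower. In the filanesib average these counts were 21 to 59 and 1 to 7, and in FPD against PD 0 to 11 and 0 to 4. Replicate numbers did not pair the arrays: deviations of same-numbered arrays correlated at r = -0.26 to 0.16, 5 of 15 pairs were over 0.1, and 5 of 12 arrays correlated best with their own number. With the block 6 members were called in FPD against Control, PLK1 being added (limma adjusted p = 0.0419). Of all genes 1051 were called higher and 865 lower with it.

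Signs turned only for changes that were not called. With median centring PLK1 in PD against Control was -0.0022 and AURKB in the pomalidomide average -0.026. With quantile normalisation AURKB in PD against Control was 0.018, CCNB1 in FPD against F 0.010, CCNA2 there 0.077 and CCNA2 in the pomalidomide average 0.028. On leaving out 1 array, PLK1 in PD against Control ranged -0.053 to 0.14, CCNB1 in FPD against F -0.15 to 0.064 and CCNA2 there -0.075 to 0.061. The departure from additivity ranged -0.082 to 0.026 for CDC20 and -0.0080 to 0.20 for AURKA, and the pomalidomide average -0.021 to 0.084 for CCNB1 and -0.015 to 0.024 for AURKB. Causes were not tested. With 3 arrays a group, precision is limited by their number.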
